A study of Mus musculus with 6 samples.

Results

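Chemokines are small secreted proteins that guide leukocytes, and 10 chemokine genes were followed in mouse liver: Cxcl14, Cxcl1, Cxcl9, Cxcl10, Cxcl12, Cxcl13, Ccl2, Ccl5, Ccl9 and Cx3cl1. They are 10 of the 12393 genes with a probe set assigned to exactly 1 symbol, and 16 probe sets measured them. For each gene the brightest probe set, by its mean over 6 arrays, stands for the gene, and the others are given beside it. Liver RNA came from 3 samples labelled wild-type and 3 labelled knock-out for the Sirt7 allele, 1 array each, all kept under the same treatment. SIRT7 is a nuclear NAD-dependent deacylase of the sirtuin family, and the study's title concerns its effect on MYC activity and tumours. The kind of Sirt7 deletion, the strain, age and sex of the mice, and pooling of animals are not given in the labels used here. Cxcl14 heads the list because its knockout difference was known from an earlier look at these values, so that difference describes the choice and is no independent result.

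Chemokines bind G protein-coupled receptors on leukocytes and glycosaminoglycans on vessel walls. In liver they come from hepatocytes, sinusoidal endothelial cells, Kupffer cells and stellate cells, and they set which leukocytes stay in the organ. CXCL14 belongs to the homeostatic chemokines, which many epithelia make without an inflammatory stimulus, and its receptor is not settled. CXCL9 and CXCL10 are induced by interferon gamma, CXCL1 and CCL2 by inflammatory signals acting through NF-kB.

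The sequences upstream of 3 of these genes are shown because Cxcl14 carries the largest difference, and because Cxcl9 and Cxcl10, the interferon-inducible pair, are set side by side further on. Each is the 250 bases before the RefSeq start site in assembly GRCm38.p6, read 5′ to 3′ on the gene's strand, and capitals mark matches to the searched motifs.
Cxcl14 (chr13:56296552-56296801, minus strand): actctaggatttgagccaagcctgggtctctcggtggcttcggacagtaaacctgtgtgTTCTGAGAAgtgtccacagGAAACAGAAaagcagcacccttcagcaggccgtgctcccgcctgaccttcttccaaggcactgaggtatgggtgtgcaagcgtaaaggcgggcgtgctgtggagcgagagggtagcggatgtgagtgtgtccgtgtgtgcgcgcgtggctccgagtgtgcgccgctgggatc
Cxcl9 (chr5:92328080-92328329, minus strand): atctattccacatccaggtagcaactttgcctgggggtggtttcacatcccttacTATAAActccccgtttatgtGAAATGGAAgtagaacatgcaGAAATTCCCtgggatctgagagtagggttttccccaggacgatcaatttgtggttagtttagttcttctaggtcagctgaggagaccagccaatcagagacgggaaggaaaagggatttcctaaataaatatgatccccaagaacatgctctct
Cxcl10 (chr5:92348890-92349139, minus strand): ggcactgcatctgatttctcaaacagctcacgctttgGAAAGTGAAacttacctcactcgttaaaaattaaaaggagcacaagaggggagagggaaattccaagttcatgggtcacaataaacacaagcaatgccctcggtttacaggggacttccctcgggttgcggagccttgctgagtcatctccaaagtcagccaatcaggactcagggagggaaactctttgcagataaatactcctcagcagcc
RefSeq windows were matched by symbol for 8 of the 10 chemokines, all but Ccl2 and Ccl5. The motifs were searched on both strands. The interferon-stimulated response element (ISRE, searched as GAAANNGAA) matched in Cxcl14, Cxcl9 and Cxcl10, against 7.13% of all 32851 windows of that length. The GAS motif of STAT factors (TTCNNNGAA) matched in Cxcl14 only among the 8, against 7.02% of all windows, and did not overlap its ISRE match. TATAAA matched in Cxcl9, Cxcl13, Ccl9 and Cx3cl1 (12.4% of all windows). An NF-kB motif (searched as GGGNNTTTC) matched in Cxcl1, Cxcl9 and Ccl9 (3.72%). Other spellings of NF-kB sites were not searched, so the remaining windows, that of Cxcl10 included, were not shown to lack such a site. The MYC-type E-box CACGTG (6.02% of all windows) and the ETS core CCGGAAG (6.91%) matched in 0 of the 8. The letters searched were settled after matches had been seen, so nothing is read from the matches beside the shares of all windows. A match describes letters in this window and was not tested as a binding site.

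The deposited values are GCRMA expression values on a log2 scale, in which 1 unit is a doubling and values near the lower end of the scale hold little signal. Array medians lay between 5.69 and 5.77. Sirt7 itself had a mean of 9.74 ± 0.15 over the wild-type and 2.78 ± 0.37 over the knockout livers (SD, n = 3 each), so the labels and its level run the same way; whether that probe set targets deleted sequence is not known here. Pearson correlations across the tested genes, which are not independent replicates, were 0.968 to 0.984 among wild-type arrays, 0.962 to 0.978 among knockout arrays and 0.949 to 0.979 between groups. Wild-type replicate 3 correlated at 0.972 to 0.979 with the knockout arrays, above its 0.968 and 0.971 with the other wild-type arrays. In whole liver, fewer cells of a type and less RNA per cell cannot be told apart.

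Cxcl14 mRNA was high in every wild-type liver and low in every knockout liver. Its log2 values, in the order of replicates 1 to 3, were 8.002, 8.42 and 8.62 in wild-type livers and 4.74, 5.49 and 5.71 in knockout livers. The highest knockout liver lay 2.29 log2 units under the lowest wild-type liver. The group means were 8.35 ± 0.31 and 5.31 ± 0.51 (SD, n = 3 each), a fall of 3.03 on the log2 scale or 8.18-fold (SE 0.29, 95% interval -3.69 to -2.37). This difference and its limma adjusted p of 0.0142 over all genes are the values that chose the gene. Of 8343 tested genes, 6 had a larger fall and 1, Sirt7, a smaller p.

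A second Cxcl14 probe set ran the same way with a wider spread. In the same order it read 8.14, 8.60 and 7.45 in wild-type livers and 3.28, 4.42 and 5.70 in knockout livers. The groups again did not overlap, with a gap of 1.75, and the difference was -3.59 (95% interval -4.83 to -2.35). Both probe sets put the knockout livers in the same order, with replicate 1 lowest and replicate 3 highest. They disagreed on wild-type replicate 3, which was the highest wild-type liver on the first and the lowest on the second. The SD over knockout livers was 1.21 on the second probe set against 0.51 on the first, and fitted among all probe sets with 1 symbol the second did not pass the threshold (adjusted p = 0.235 with limma).

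The sign of the Cxcl14 difference was the same under all 15 alternatives that were run, while its call was lost under 4 of them. Without knockout replicate 2 the difference was -3.12 with a limma adjusted p of 0.0901, and without knockout replicate 3 it was -3.23 with 0.0677. Without wild-type replicate 3 it was -2.90 with 0.0118. With the mean of both probe sets in place of the brighter one it was -3.31 with 0.0754. Leaving out 1 array at a time gave differences of -3.23 to -2.74 and adjusted p-values of 0.00614 to 0.0901; over all 15 alternatives they ran from 0.000357 to 0.833.

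**Figure D1:**
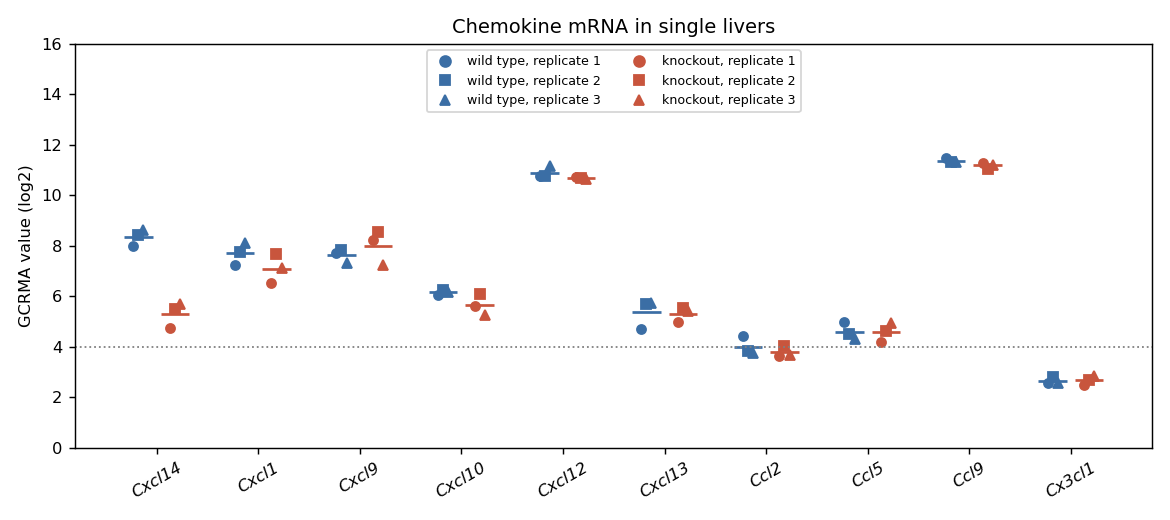
Log2 GCRMA value (y axis) of each chemokine gene (x axis) in 3 wild-type livers (blue) and 3 knockout livers (red); symbols mark the replicate, bars the group mean, and the dotted line the level of 4 under which genes were not tested. Cxcl14 is the gene whose groups lie far apart, at 8.002 to 8.62 and 4.74 to 5.71; values of different genes come from different probes and are not comparable as levels.

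Of the 10 chemokines, 8 reached the mean log2 value of 4 required for testing. The member just inside was Ccl5, with a mean over 6 arrays of 4.58, and the members outside were Ccl2 (3.89) and Cx3cl1 (2.65). Limma called 1 of the 8, Cxcl14, and 2 genes in all, which is 0.0240% of the tested genes; since Cxcl14 was chosen by this contrast, nothing is read from that count. The other 7 did not pass the threshold, and 0 of them had an unadjusted p under 0.05, against 6.46% of all tested genes. The median difference of the 7 was -0.196, beside a median of -0.032 over all tested genes. Apart from Cxcl14, groups did not overlap in 2 of the 7, Cxcl12 and Ccl9, both with lower knockout values, against 5.48% of all tested genes in that direction; the gaps were 0.029 in Cxcl12 and 0.048 in Ccl9.

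**Figure D2:**
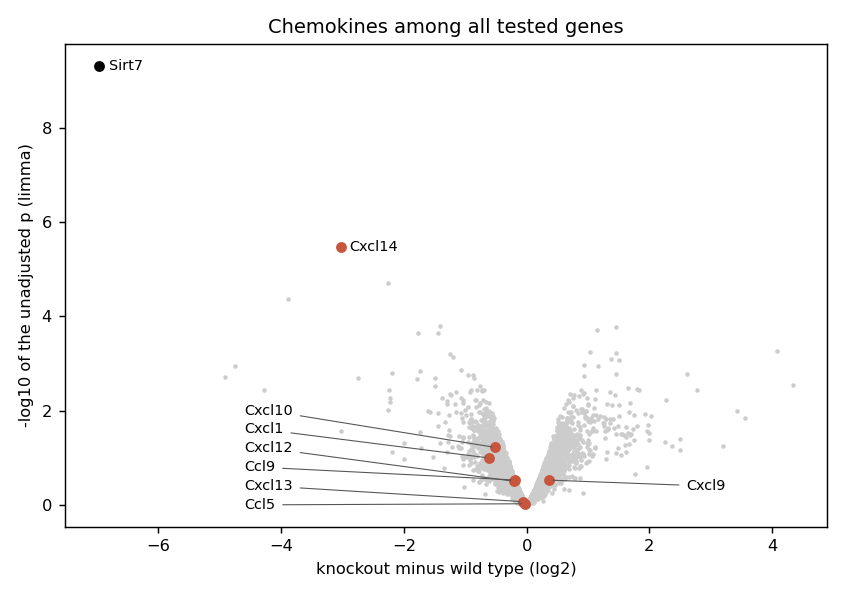
Difference between knockout and wild type in log2 units (x axis) against −log10 of the unadjusted limma p (y axis) for 8343 tested genes (grey), with the 8 tested chemokines in red and Sirt7 in black. Cxcl14 lies at -3.03, while the other chemokines lie between -0.61 and 0.37 within the mass of genes.

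Among the chemokines that attract neutrophils and monocytes, Cxcl1, the main ligand of CXCR2, read 7.25, 7.75 and 8.12 in wild-type livers. The knockout livers read 6.51, 7.67 and 7.11 in the same order. Knockout replicates 1 and 3 lay under all wild-type livers and knockout replicate 2 among them. The difference was -0.61 (SE 0.33, 95% interval -1.37 to 0.15, limma adjusted p = 0.79). Array weights brought it to -0.11, leaving out knockout replicate 1 to -0.32 and leaving out wild-type replicate 3 to -0.40. Other arrays moved it the other way: it was -0.90 without knockout replicate 2 and -0.84 without wild-type replicate 1. The interval reaches a fall of more than 1 log2 unit, so the spread of these livers allows a sizeable fall or none. Cxcl1 was among the more variable genes, with a residual SD of 0.51 that 10.5% of tested genes exceeded.

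Ccl2, which recruits monocytes through CCR2, was under the testing level. It read 4.403, 3.85 and 3.75 in wild-type and 3.63, 4.04 and 3.67 in knockout replicates 1 to 3. The groups overlapped, and wild-type replicate 1 was the highest liver; without it the difference moved from -0.22 to -0.016. Ccl9, a mouse CC chemokine that acts through CCR1 on myeloid cells, read 11.46, 11.34 and 11.33 in wild-type and 11.29, 11.06 and 11.21 in knockout replicates 1 to 3. All knockout values were lower (difference -0.20, SE 0.18, 95% interval -0.60 to 0.21, limma adjusted p = 0.842). Its second probe set pointed the other way, at 7.95, 7.95 and 8.77 in wild-type and 8.92, 8.40 and 8.39 in knockout replicates 1 to 3, a difference of 0.35. No direction can be given for Ccl9 from these probe sets.

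Cxcl9 and Cxcl10 are interferon gamma-induced ligands of CXCR3, the receptor of activated T cells and natural killer cells. Cxcl9 read 7.71, 7.84 and 7.32 in wild-type and 8.22, 8.54 and 7.22 in knockout replicates 1 to 3. Knockout replicates 1 and 2 were above all wild-type livers and knockout replicate 3 below all of them. The difference was 0.37 (SE 0.34, 95% interval -0.39 to 1.14, limma adjusted p = 0.842), and it was 0.76 without knockout replicate 3 and 0.099 without knockout replicate 2.

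Cxcl10 read 6.06, 6.24 and 6.16 in wild-type livers, an SD of 0.091. In knockout replicates 1 to 3 it read 5.62, 6.07 and 5.25. Knockout replicates 1 and 3 lay under the wild-type livers, and knockout replicate 2 just above the lowest of them. The difference was -0.51 (SE 0.24, 95% interval -1.05 to 0.028, limma adjusted p = 0.773). It was -0.31 without knockout replicate 3 and -0.19 with array weights, but -0.72 without knockout replicate 2 and -0.56 without wild-type replicate 1. Within the knockout livers both genes had the same order, with replicate 2 highest and replicate 3 lowest. Neither difference passed the threshold, and both intervals include 0.

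Among the homeostatic chemokines, Cxcl12, the ligand of CXCR4 and ACKR3 made by stromal and endothelial cells, differed little. It read 10.76, 10.75 and 11.16 in wild-type and 10.72, 10.70 and 10.64 in knockout replicates 1 to 3. The groups did not overlap, but wild-type replicates 1 and 2 lay close to the knockout livers and wild-type replicate 3 above both. The difference was -0.20 (SE 0.19, 95% interval -0.64 to 0.23, limma adjusted p = 0.843) and -0.070 without wild-type replicate 3. A second probe set read 10.72, 10.59 and 10.32 in wild-type and 9.84, 10.42 and 10.25 in knockout replicates 1 to 3, a difference of -0.37 with overlapping groups. On that probe set wild-type replicate 3 was the lowest wild-type liver, as on the second probe set of Cxcl14.

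Cxcl13 draws B cells through CXCR5. It read 4.69, 5.70 and 5.72 in wild-type and 4.97, 5.55 and 5.42 in knockout replicates 1 to 3. Replicate 1 was the lowest of each group, and the groups overlapped fully. The difference was -0.058 (95% interval -0.77 to 0.65, limma adjusted p = 0.977), and a second probe set differed by 0.29 with overlapping groups. Ccl5, a T cell and natural killer cell chemokine, read 4.98, 4.51 and 4.29 in wild-type and 4.18, 4.61 and 4.93 in knockout replicates 1 to 3. Its groups covered nearly the same range, and the difference was -0.018 (95% interval -0.62 to 0.58, limma adjusted p = 0.992).

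Cx3cl1, the membrane-anchored ligand of CX3CR1, stayed near the lower end of the scale on all of its 3 probe sets. The brightest read 2.58, 2.79 and 2.54 in wild-type livers and 2.495, 2.68 and 2.82 in knockout livers. No level above background was shown for it here, since the deposited values carry no detection call, and its differences of 0.030, -0.18 and -0.064 are not interpretable as RNA amounts.

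**Figure D3:**
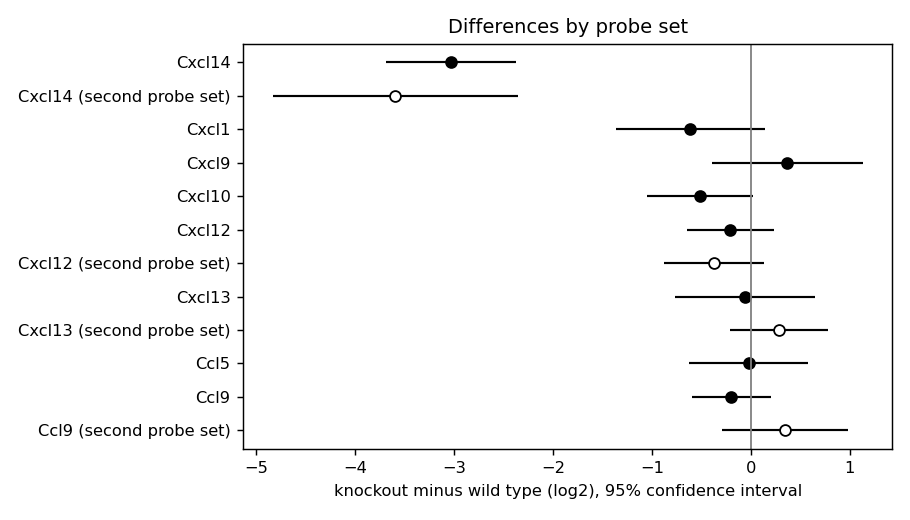
Difference between knockout and wild type in log2 units (x axis) with 95% confidence intervals for each chemokine probe set with a mean log2 value of at least 4; filled points are the representing probe sets in the fit over genes, open points the second probe sets in the fit over probe sets. Both Cxcl14 intervals lie under -2, all others include 0, and the 2 probe sets of Cxcl13 and of Ccl9 have opposite signs.

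No single liver was high or low in all of the chemokines. Among the 8 tested, wild-type replicate 3 was the highest liver in 4 and wild-type replicate 1 in 2. Knockout replicate 1 was the lowest liver in 3 (Cxcl14, Cxcl1 and Ccl5) and knockout replicate 3 also in 3 (Cxcl9, Cxcl10 and Cxcl12). Among the cell type markers, knockout replicate 1 was at the edge of several lists. It had the lowest mean of the 5 tested B and plasma cell markers, 4.10 against 4.97 to 6.30 in the other livers. Its mean was also lowest for T and natural killer cell markers (4.56), although Prf1, Gzma and Cd4 of that list were not lowest there. For the 2 tested adipose, pancreas, muscle and mesothelium markers its mean was barely lowest, 7.01 against 7.03 in knockout replicate 2, where Cela1 was lowest. Knockout replicate 1 had the highest mean of the 14 tested Kupffer cell and macrophage markers, 9.12 against 8.54 to 8.73. Csf1r of that list was nonetheless lowest there (9.38). Sinusoidal endothelial markers were likewise highest there, 8.42 against 7.94 to 8.23. The part of these cells in the chemokine values was not tested.

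The genes whose profile over the 6 livers was most like that of Cxcl14 were Pcyt2, Cd300ld, Nat8 and Cyb561. Likeness was the root mean square difference after each gene's mean over the 6 livers was subtracted, and was 0.60, 0.66, 0.72 and 0.79 log2 units in that order, against 1.55 for Cxcl14 about its own mean. Pcyt2, an enzyme gene of phosphatidylethanolamine synthesis, read 11.28, 11.61 and 11.46 in wild-type and 6.18, 8.07 and 8.45 in knockout replicates 1 to 3. Like Cxcl14 it was lowest in knockout replicate 1 and highest among knockout livers in replicate 3.

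Cd300ld, a myeloid receptor gene, read 5.72, 4.70 and 5.32 in wild-type and 3.04, 2.87 and 3.08 in knockout replicates 1 to 3. Its knockout values lay under the testing level, which it reached only through the wild-type livers, so it had to differ to be tested. Nat8, which encodes an N-acetyltransferase of cysteine conjugates, read 9.28, 9.27 and 8.73 in wild-type and 6.72, 7.58 and 7.66 in knockout replicates 1 to 3. Cyb561, an ascorbate-dependent electron carrier gene, read 7.16, 7.14 and 5.91 in wild-type and 3.23, 4.66 and 5.58 in knockout replicates 1 to 3. Groups did not overlap in any of these 4, as the measure of likeness makes likely, and limma called 0 of them. Their limma adjusted p-values in the same order were 0.0875, 0.0535, 0.213 and 0.652. All 4 had an unadjusted limma p under 0.05, beside 6.46% of all tested genes. The measure of likeness makes that likely too, so nothing is read from that count.

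**Figure D4:**
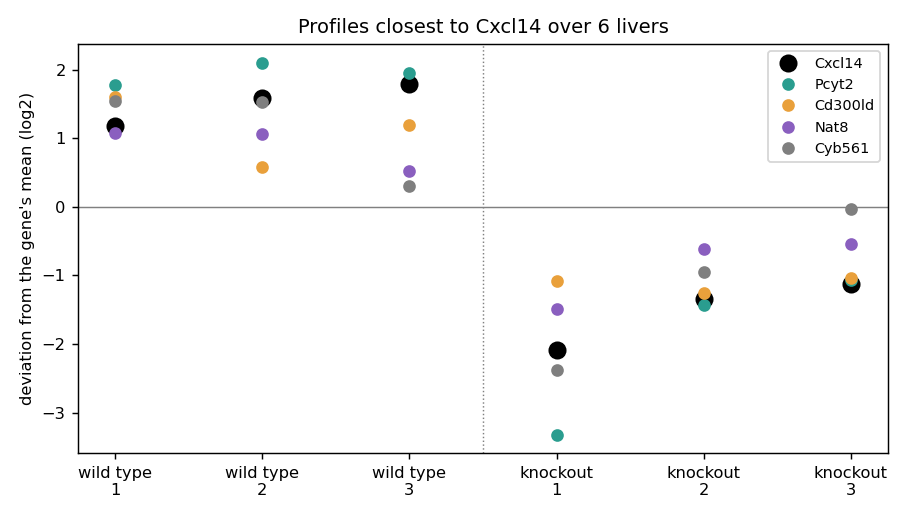
Deviation of each gene's log2 value from its mean over 6 livers (y axis) in each liver (x axis) for Cxcl14 (large black points) and the 4 genes closest to it. All 5 genes lie above 0 in the wild-type livers and under 0 in the knockout livers, with the widest spread in knockout replicate 1.

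Receptors of these chemokines were mostly near the lower end of the scale. Of 23 listed receptors 21 were measured and 4 reached the testing level: Cxcr4, Ackr3, Ackr1 and Ccr2. Limma called 0 of the 4, and 1, Ackr1, had an unadjusted p under 0.05, beside 6.46% of all tested genes. Cxcr4, the signalling receptor of CXCL12, read 7.52, 6.24 and 6.11 in wild-type and 6.28, 8.32 and 7.13 in knockout replicates 1 to 3. It varied more within each group than between the groups, whose difference was 0.62 (SE 0.53, limma adjusted p = 0.833). B and plasma cell markers were likewise highest in knockout replicate 2 (6.30) and wild-type replicate 1 (5.86), and their part in the Cxcr4 values was not tested.

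Ackr3, the scavenging receptor of CXCL12, read 5.65, 4.28 and 5.29 in wild-type and 5.49, 5.49 and 5.60 in knockout replicates 1 to 3, a difference of 0.46 (SE 0.33) with overlapping groups. Ackr1, an atypical receptor of venular endothelium and red cells that binds many inflammatory chemokines, read 5.17, 5.50 and 6.39 in wild-type and 6.70, 6.25 and 6.27 in knockout replicates 1 to 3. The third wild-type liver lay among the knockout livers, and the difference of 0.72 (SE 0.32) missed the threshold (limma adjusted p = 0.772). Ccr2, the receptor of CCL2, was close to the testing level, with a mean of 4.35 ± 0.059 over the wild-type and 4.01 ± 0.35 over the knockout livers (SD, n = 3 each).

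Receptors of the other members were under the testing level in these whole-liver samples. Their means over 6 arrays were 1.83 for Cxcr2, 3.41 for Cxcr3, 2.47 for Cxcr5, 2.61 for Ccr1 and 3.36 for Cx3cr1. The values carry no detection call, so these receptors were neither shown to be expressed nor shown to be missing.

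The other chemokines on the array gave 24 measured genes, of which 7 were tested: Ccl6, Ccl24, Ccl25, Ccl27a, Cxcl11, Cxcl16 and Pf4. Limma called 0 of them and 0 had an unadjusted p under 0.05, beside 0.0240% and 6.46% of all tested genes. Of their differences 6 were above 0 and 1 was under it, with a median of 0.12 beside -0.032 over all tested genes. Ccl6, a mouse myeloid chemokine, read 8.32, 8.88 and 8.27 in wild-type and 9.65, 8.43 and 8.56 in knockout replicates 1 to 3, so that knockout replicate 1 stood out. Ccl27a differed by 0.28 (SE 0.19), Ccl25 by 0.20 (SE 0.35) and Cxcl16, the transmembrane ligand of CXCR6, by 0.12 (SE 0.20). None of these intervals excluded 0, and none reached the size of the Cxcl14 fall in either direction.

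Genes that induce chemokines or answer the same signals did not pass the threshold either. Of the 29 tested genes of interferon gamma signalling and its targets, 9 were higher and 20 lower, limma called 0, and 3 (10.3%) had an unadjusted p under 0.05, beside 6.46% of all tested genes; their median difference was -0.099, beside -0.032 over all tested genes. Igtp, an interferon-induced GTPase gene, read 11.32, 11.80 and 11.16 in wild-type and 10.47, 10.69 and 10.79 in knockout replicates 1 to 3, a difference of -0.78 (SE 0.22, adjusted p = 0.725). Oasl2, an antiviral interferon target, differed by -0.83 (SE 0.23, adjusted p = 0.705), also with all knockout livers lower. The receptor subunit gene Ifngr2 pointed the other way (0.65, SE 0.25), as did Psmb9, an immunoproteasome subunit gene (0.59, SE 0.28). Ifng itself was near the lower end of the scale, at 1.89 to 2.42.

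Of the 24 tested genes of inflammatory inducers and NF-kB signalling, 6 were higher and 18 lower, limma called 0, and 2 (8.33%) had an unadjusted p under 0.05, beside 6.46% of all tested genes; the median difference was -0.17, beside -0.032 over all tested genes. Those 2 were Cd14, the co-receptor of bacterial lipopolysaccharide, at 4.97, 4.84 and 4.73 in wild-type and 5.65, 5.33 and 5.57 in knockout replicates 1 to 3 (limma adjusted p = 0.705), and the adhesion molecule gene Vcam1 (0.60, SE 0.24). Icam1, another adhesion molecule gene, differed by -0.57 (SE 0.27) and Socs3, the feedback inhibitor of cytokine signalling, by -0.58 (SE 0.30). Tnf was at a mean of 2.58 over 6 arrays, under the testing level.

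Proteases that trim or shed chemokines, and their inhibitors, had 7 of 9 genes tested, with 4 higher and 3 lower. Limma called 0 of the 7 and 0 had an unadjusted p under 0.05, beside 0.0240% and 6.46% of all tested genes. The median difference was 0.001. Mmp14, a membrane-bound matrix metalloproteinase gene, differed by -0.32 (SE 0.20), Adam10, whose product sheds CX3CL1, by 0.16 (SE 0.25), Timp2 by 0.12 (SE 0.25) and Mmp2 by -0.091 (SE 0.21). None of these intervals excluded 0.

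**Figure D5:**
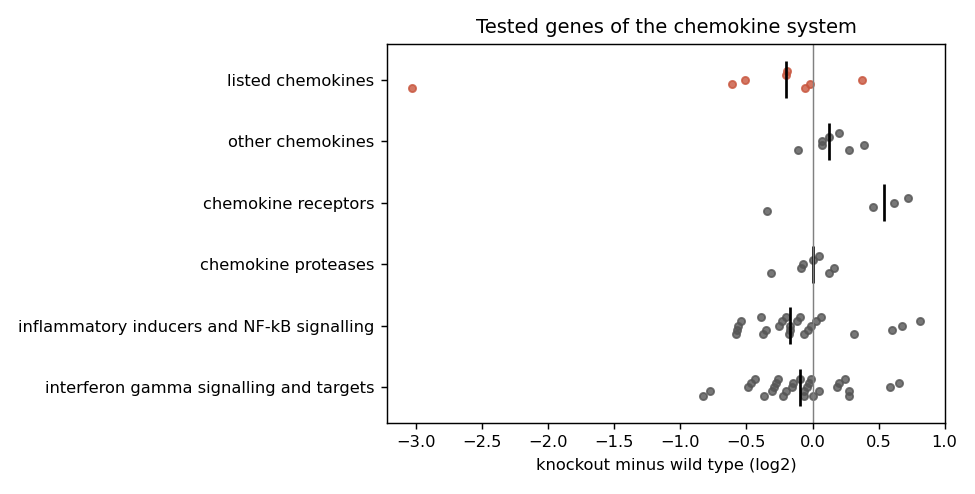
Difference between knockout and wild type in log2 units (x axis) for each tested gene (points) of the listed chemokines and of the other lists of the chemokine system; black bars are medians. Cxcl14 at -3.03 lies far outside all other points, which run from -0.83 to 0.81.

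Cell types that could supply Cxcl14 or the other chemokines were followed through marker lists, as the mean log2 value of their tested markers in each liver. In none of the 10 lists did the wild-type and knockout means separate. Hepatocyte markers (12 of 12 measured genes tested) lay at 12.43 to 12.66 in wild-type and 12.32 to 12.61 in knockout livers, with Alb at 12.41 to 13.10, so the samples carry the liver markers their label names. Stellate cell and fibroblast markers (15 of 16 tested) lay at 7.71 to 7.89 and 7.62 to 7.80, sinusoidal endothelial markers (14 of 14) at 7.94 to 8.23 and 7.96 to 8.42, and Kupffer cell and macrophage markers (14 of 14) at 8.54 to 8.73 and 8.62 to 9.12.

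Cholangiocyte markers, of bile duct epithelium, had 5 of 8 genes tested, at 4.61 to 5.08 and 4.78 to 4.90. Its members did not run 1 way: the defining keratins Krt19 and Krt7 differed by 0.58 and -0.15, Tspan8 by 0.56, Krt23 by 0.13 and the transcription factor gene Sox9 by -0.91. Sox9 read 6.27, 5.06 and 5.75 in wild-type and 4.85, 4.49 and 5.004 in knockout replicates 1 to 3 (limma adjusted p = 0.746). All its knockout values were lower, as in 5.48% of all tested genes. Among markers of the other lists, all knockout values were also lower in Col1a2 (-0.60), Acta2 (-0.53), Des (-0.24) and Tek (-0.27). They were all higher in C1qa (1.05), Cd68 (0.50) and Oit3 (0.33). Groups did not overlap in 9.74% of all tested genes in either direction. The part of any of these markers in the Cxcl14 values was not tested. T and natural killer cell markers (7 of 14 tested) lay at 4.64 to 4.80 and 4.56 to 5.52. Monocyte and neutrophil markers (4 of 9) lay at 6.55 to 7.19 and 6.70 to 7.87, and B and plasma cell markers (5 of 9) at 4.97 to 5.86 and 4.10 to 6.30. Dendritic cell markers had 2 of 6 genes tested, at 6.12 to 6.30 and 5.99 to 6.19. Markers of adipose, pancreas, muscle and mesothelium had 2 of 9 tested, Cela1 at 9.24 to 10.73 and Upk3b at 4.11 to 5.59 over the 6 livers. The other 7, among them Adipoq (1.81 to 2.08) and the pancreatic trypsinogen gene Prss2 (at most 2.43), were under the testing level. Limma called 0 markers in all of these lists, beside 0.0240% of all tested genes.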

How the data were processed

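The authors deposited 1 log2 expression value per probe set and array, made with GCRMA (version 2.20.0) under R 2.11.1 as the submitters' processing notes say; the log2 scale was read from the range of 0.841 to 13.969. GCRMA models background from probe sequence, and values near the lower end of the scale hold little signal. The GCRMA settings are not stated in the notes used here. Biotin-labelled cRNA was hybridised to 6 Affymetrix arrays, per the labels' protocols, and the number of arrays limits the precision.

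Of 22626 probe sets, 20380 had 1 gene symbol in the platform annotation, 691 several and 1555 none. The 8343 genes with a mean of at least 4 were compared with limma 3.58.1 in R 4.3.3 (lmFit, eBayes, 2-sided, no block), with Benjamini-Hochberg adjusted p under 0.05 as the threshold and moderated standard errors. Nothing says that samples of a group were separate animals, and p-values therefore measure only sample-to-sample spread, possibly technical. With 3 against 3, an exact permutation test cannot go under 0.1.

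The chemokines, lists and tests were chosen with earlier results of these data known. Named were all member probe sets, receptors of the members, up to 4 tested genes with the smallest p of each pathway list, the 4 profiles closest to Cxcl14, Sirt7 and defining markers; Ifng and Tnf were added after their values were seen. List entries without a probe set of 1 symbol were not used here. The letters of the promoter motifs were settled after matches had been seen. The fit was tested on simulated data. Alternatives were other filters on dim genes, normalization, probe set rules, tests, array weights, a replicate block and leaving out each array.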

Additional observations from a re-analysis of the deposited data

How the results depend on the processing

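The Cxcl14 difference kept its sign under all 15 alternatives and ran from -3.23 to -2.74 without 1 array. With the mean of all probe sets it was -3.31 (limma adjusted p = 0.0754), 0 of the chemokines were called and 1 gene in all. An unmoderated 2-sample test (-3.03, adjusted p = 0.833) called 0 chemokines and 0 genes, with 405 genes at an unadjusted p under 0.05, where limma had 539. Array weights gave 1748 called genes and 2 called chemokines, Cxcl14 and Cxcl9 (0.71, adjusted p = 0.0413); the weights ran from 0.31 for knockout replicate 3 to 6.12 for knockout replicate 2. Leaving out 1 array gave 0 to 1 called chemokines and 1 to 38 called genes, the 38 without wild-type replicate 3.

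Signs that turned belonged to small differences: Cxcl13 with the mean of probe sets (0.114) and array weights (0.029), Ccl5 with array weights (0.0023) and Ccl9 with the mean of probe sets (0.075); the cause was not tested. Without 1 array Cxcl13 ran from -0.40 to 0.12 and Ccl5 from -0.20 to 0.18. With the replicate number as a block, 2 genes were called, among them Cxcl14 (-3.03, adjusted p = 0.0287). Deviations from the group means correlated at -0.089, -0.091 and -0.19 between livers of the same number, so the numbers were not taken as pairs, and the block changed no call of a chemokine. Other filters and quantile normalization changed no call of a chemokine.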

Other observations

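Cxcl9 and Cxcl10 answer the same inducer, and their values in the same liver were set against each other after they had been seen. The log2 value of Cxcl9 minus that of Cxcl10 was 1.65, 1.59 and 1.16 in wild-type and 2.61, 2.47 and 1.97 in knockout replicates 1 to 3. The groups did not overlap, and the mean of this contrast was 0.88 higher in knockout livers (1.47 ± 0.27 and 2.35 ± 0.33, SD, n = 3 each), while neither gene alone passed the threshold. The contrast was built from values already seen, and it sets a gene with a rise (0.37) against a gene with a fall (-0.51). Nothing is therefore read from its separation, and no test is given. Cxcl11, the other interferon-induced CXCR3 ligand, did not follow either gene: it read 6.59 in wild-type replicate 1, 4.68 in both other wild-type livers, and 5.24, 5.32 and 5.60 in knockout replicates 1 to 3.

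The leading principal component, which held 45.7% of the variance over tested genes, did not separate the groups: wild-type replicates 1 to 3 scored -25.1, -28.3 and 5.87, and knockout replicate 3 scored lower than wild-type replicate 3. Cxcl14 in wild-type replicate 3 and knockout replicate 3 read 8.62 and 5.71 on the first probe set and 7.45 and 5.70 on the second. Since Cxcl14 was chosen for its group difference, that order was given by the choice, and nothing is read from it about this component.

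The neutrophil genes S100a8 and Camp, picked after their values were seen, were lower in knockout replicate 1 than in the other knockout livers. S100a8 read 6.32, 8.35 and 7.95 and Camp 3.70, 5.07 and 4.70 in knockout replicates 1 to 3, against 7.29, 6.58 and 7.41 and 3.55, 3.47 and 4.14 in wild-type replicates 1 to 3. Cxcl1, the neutrophil attractant, was likewise lowest in knockout replicate 1, at 6.51, and highest among knockout livers in replicate 2, at 7.67, but among wild-type livers it had another order than Camp or S100a8. In the same monocyte and neutrophil list, S100a9 (8.76, 9.99 and 9.95) and Ngp (2.90, 5.37 and 4.48) had that order in knockout replicates 1 to 3. The rest of the list had other orders there: Elane read 2.67, 2.83 and 2.85, Mpo 2.51, 2.96 and 3.70, and Plac8 8.03, 8.06 and 7.51. Csf3r and Cd177 also had other orders. Of these genes Ngp, Elane, Mpo, Csf3r and Cd177 were under the testing level. The order was not particular to neutrophil genes, since the mean of the T and natural killer cell markers ran 4.56, 5.52 and 5.18 in the same livers.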
